A study of Canis lupus familiaris with 7 samples.

Results

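Expression along canine chromosome 1 was examined in 7 primary osteosarcomas, bone tumours whose malignant cells lay down bone matrix. The array held 2425 probes with a position on chromosome 1 of the canFam2 build, of 43603 probes in all, and the 1804 that were well above background on at least 3 arrays were kept. Of these, 376 lay between 55 and 100 Mb, a stretch that held 565 probes before the filter, and 1428 lay elsewhere on the chromosome. The stretch was selected on the deviations described here, because earlier results of these data showed raised windows there. Its deviations are thus a description, and the flagging rule applied to some of its values in a closing section supports nothing. Since 3 arrays were needed, a probe detected in 1 tumour alone was not kept, though a tumour with high values could count among the 3.

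The study asked which expression differences go with loss of DLG2, a scaffold gene, and assayed 4 tumours labelled DLG2 deleted and 3 labelled DLG2 wild type, with 1 array per dog. The deleted tumours came from a mixed breed of German Shepherd and Collie (8 years, MC), a Rottweiler cross (9 years, FS), a Greyhound (6 years, MC) and a Great Pyrenees (7 years, FS), and are called deleted tumours 1 to 4 in that order. The wild-type tumours came from a Boxer (12 years, FS), a Labrador cross (10 years, FS) and a Bull Mastiff (8 years, MC), called wild-type tumours 1 to 3. MC and FS are the sex labels as given. All 7 samples were pieces of tumour tissue from dogs of different breeds, so DLG2 status was not the only thing that varied, and in such tissue more cells of a type and more RNA per cell cannot be told apart.

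All 6 osteoblast marker genes with a kept probe, of 10 listed, were well above background on all 7 arrays. So were all 5 osteoclast and all 6 leukocyte markers with a kept probe, of 7 and 8 listed. Of the adipocyte markers 4 of 5 were, and of the endothelial markers 3 of 4. Detection thus did not set osteoblasts apart. Between 30280 and 34538 probes per array were well above background, and replicate spots had a median SD of 0.07 to 0.11 on the log2 scale. Wild-type tumours 1 and 2 were the closest pair of arrays (Pearson r = 0.987 across probes, against 0.935 to 0.965 in the other pairs), and the values without either are given where they matter. Deleted tumours 1 and 4 and wild-type tumours 1 and 3 were each alone on a slide, so for these 4 a property of the slide and one of the tumour cannot be told apart. By the extraction times in the file headers, the arrays fell into 2 sessions. Deleted tumour 1 and wild-type tumours 1 and 3 shared 1 session and the remaining tumours the other, so session partly overlapped with DLG2 status.

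Genes that lie side by side on a chromosome can change level together when the chromosome segment is gained or lost, and osteosarcoma is known for such segment changes. Neighbouring genes can also share regulation, and the RNA level of a gene follows its dosage only in part. DNA copy number was not analysed here.

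The genes of the stretch belong to many pathways. Shown here are the probes of 5 genes, spread along it, for which the levels in deleted tumour 4 stood above those in every other tumour. The first 30 of 60 bases of each probe are given 5′ to 3′ as deposited, with no base in capitals because no motif was searched. The place of a probe within its transcript was not analysed here.
TRMT11, probe A_11_P151768, canFam2 chr1:67974068-67974127, plus strand: ggtaggttcgtttaatttggtttctgattg
EPB41L2, probe A_11_P0000021833, canFam2 chr1:72177850-72177909, minus strand: taacagccctggtctatcctgttcccccgc
ISCA1, probe A_11_P111296, canFam2 chr1:76537749-76537808, plus strand: tttgttttcaataacccaaacatcaaagga
PSAT1, probe A_11_P120751, canFam2 chr1:83445560-83445619, minus strand: gtgaagttctggaagatctttgtggaagag
ANXA1, probe A_11_P0000021854, canFam2 chr1:87812028-87812087, minus strand: tggctctctgcggagactaactttcctttg

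In deleted tumour 4 alone, chromosome 1 probes from 55 Mb to about 105 Mb tended to stand above the other tumours, though not in every part of that range. Each probe was expressed as its deviation, the log2 intensity minus the median of that probe over the 7 tumours. The median deviation of the 376 probes of the stretch minus that of the 1428 other chromosome 1 probes, called the block difference, was 0.45 in deleted tumour 4. In the remaining deleted tumours it was 0.029, -0.0048 and -0.0089, and the wild-type tumours stood at -0.0007, 0.0 and 0.0077. These 6 tumours lay close to 0, and deleted tumour 4 lay far above them. As groups, the deleted tumours had a mean of 0.12 ± 0.22 (SD, n = 4) and the wild-type tumours 0.0023 ± 0.0046 (SD, n = 3), and without deleted tumour 4 the deleted mean was 0.0051 ± 0.0208 (SD, n = 3). The label of a regional block thus held for 1 of the 7 tumours and not for the DLG2-deleted group.

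The size of the block difference depended on which probes entered. It was 0.77 over probes well above background on all 7 arrays and 0.82 with 1 probe per gene, but 0.20 over kept probes without a gene symbol and 0.094 with no filter on dim probes. It was 0.96 with the processed intensity of the scanner software in place of the correction used here. Over probes well above background on 0 arrays it was 0.0033.

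Ranks gave the same picture without the size of a deviation. Deleted tumour 4 was the highest of the 7 tumours at 200 of the 376 probes of the stretch (53.19%), against 18.5% of all kept probes in the genome and 16.95% of the kept chromosome 1 probes outside the stretch. In each of the other tumours, between 5.59% and 12.77% of the probes of the stretch were highest. A deviation of 1 or more, that is a level at least double the probe's median, was seen in deleted tumour 4 at 98 of the 376 probes (26.06%), against 3.21% of all kept probes.

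**Figure D1:**
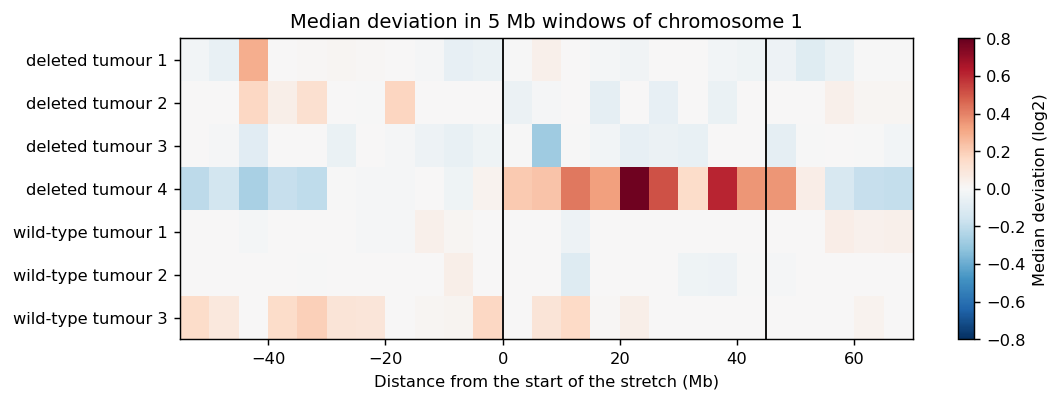
Median deviation (log2, colour) of kept probes in each 5 Mb window of chromosome 1, with the 7 tumours in rows and the distance from the start of the stretch in Mb along the bottom. The vertical lines mark the stretch, and in the row of deleted tumour 4 its windows reach 0.78 while windows toward both ends of the chromosome are below 0.

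By 5 Mb windows, all 9 windows of the stretch were above 0 in deleted tumour 4. From 55 to 100 Mb their medians were 0.21, 0.23, 0.42, 0.33, 0.78, 0.51, 0.14, 0.61 and 0.35. The highest lay at 75 to 80 Mb, and at 85 to 90 Mb the median fell short of the 0.2 taken as raised. In the other 6 tumours the window medians of the stretch ran from -0.29 to 0.16. The lowest of these belonged to deleted tumour 3 at 60 to 65 Mb.

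The raised probes did not stop at 100 Mb. The window at 100 to 105 Mb had a median of 0.35 in deleted tumour 4, and 92 of its 152 probes (60.53%) were highest in that tumour. At 105 to 110 Mb the median was 0.052. With the stretch drawn to 105 Mb, a choice made after seeing the data, the block difference was 0.45. In 1 Mb steps the median was 0.015 at 54 to 55 Mb and 0.86 over 5 probes at 55 to 56 Mb, yet a step outside the stretch, 51 to 52 Mb, already stood at 0.40. No sharp edge was seen on either side. The first gene after 55 Mb, QKI, an RNA-binding protein, had probes with deviations of 0.86 and -0.34 in deleted tumour 4. On the other side, SECISBP2, which binds selenoprotein messages, was at 1.74, and SHC3, a signalling adaptor just beyond 100 Mb, at -0.31.

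Both ends of the chromosome were low in the same tumour. Over the 162 kept probes from 0 to 25 Mb its median deviation was -0.20, and it was the lowest of the 7 tumours at 76 of them (46.91%, against 18.9% of all kept probes). Over the probes from 105 Mb to the end the median was -0.10, with 266 lowest in deleted tumour 4 (33.46%). The 3 windows of the chromosome at -0.2 or less all lay between 0 and 25 Mb. Those from 110 Mb on stood at -0.13, -0.18 and -0.19 and missed that limit. The windows between 25 and 55 Mb lay between -0.033 and 0.030. Of 55 genes with a symbol from 0 to 25 Mb, 30 were lowest in deleted tumour 4, and of 231 genes from 110 Mb on, 99 were lowest and 9 highest there.

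**Figure D2:**
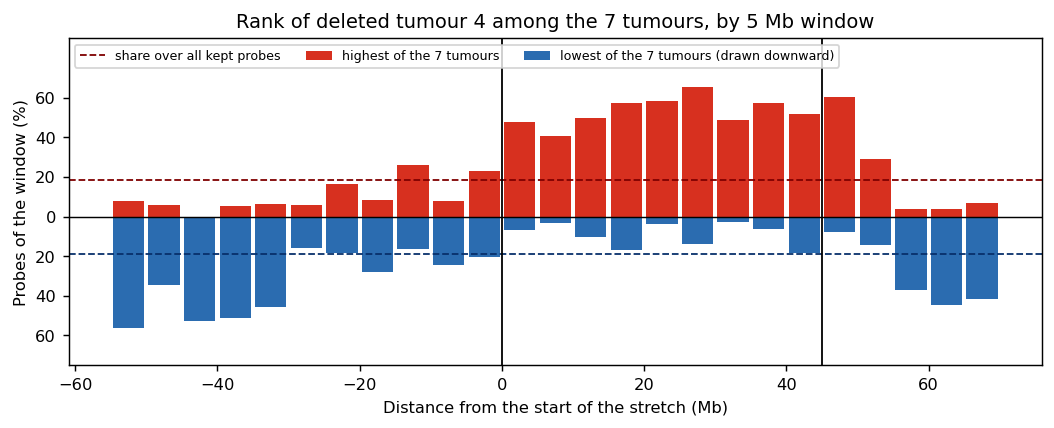
Share of the kept probes of each 5 Mb window (%) that were highest (upward) or lowest (downward) in deleted tumour 4, against distance from the start of the stretch in Mb. Dashed lines give the shares over all kept probes, 18.5% and 18.9%, and every window of the stretch lies above the upper one.

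Windows of the same size were counted over the genome for scale. Of 476 windows with 10 or more kept probes, 8.4% were raised by 0.2 or more in deleted tumour 4, and on chromosome 1 these were 9 of 25. Over the genome, raised windows made up a like share in deleted tumour 1 (9.66%) and deleted tumour 2 (7.35%), but on chromosome 1 they numbered 1 and 0. The shares were 1.05% in deleted tumour 3 and 1.26%, 1.05% and 4.62% in the wild-type tumours in order, with 0 raised windows on chromosome 1 in each. Windows lowered by 0.2 or more numbered 3 of 25 on chromosome 1 in deleted tumour 4 (3.57% over the genome) and 1 in deleted tumour 3 (3.78%). The other tumours had 0 there, beside genome shares of 4.62% and 3.15% in deleted tumours 1 and 2 and 2.31%, 0.63% and 3.15% in the wild-type tumours. The 3 highest of the 476 windows in deleted tumour 4 all lay in the stretch, at 75 to 80, 90 to 95 and 80 to 85 Mb, and its highest window elsewhere reached 0.47 on chromosome 2. Its longest run of neighbouring raised windows, 6, was that from 55 to 85 Mb. In deleted tumour 1 many raised windows lay on chromosome X, with a run of 5 from 60 to 85 Mb and a highest value of 0.81. That tumour also had a run of 5 lowered windows on chromosome 23, from 30 to 55 Mb. In the remaining tumours the longest raised runs were of 1 to 3 windows. Single windows in other tumours reached higher values elsewhere in the genome. Neither height nor a run of raised windows was thus particular to the stretch. Low windows were not particular to chromosome 1 either: in deleted tumour 4, 14 of 451 windows elsewhere were lowered, down to -0.60 on chromosome 31.

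**Figure D3:**
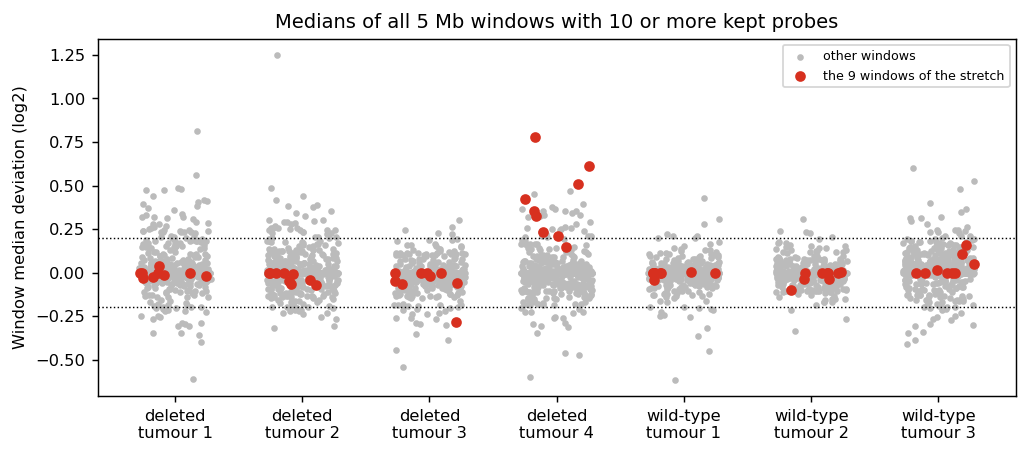
Median deviation (log2) of each of the 476 windows of 5 Mb in each tumour, as points spread sideways for view, with the 9 windows of the stretch in red. Dotted lines mark 0.2 and -0.2, and the red points are above the upper line in 8 of 9 cases in deleted tumour 4 and in 0 cases in the other tumours.

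At the level of genes, 120 genes with a symbol had a kept probe in the stretch. Of these, 70 were highest in deleted tumour 4 and 7 were lowest. Their median deviation there was 0.71 with quartiles of -0.0032 and 1.32. A deviation of 1 or more was seen for 46 genes and of -1 or less for 4. Where a gene had several probes, they mostly pointed one way: of 43 such genes, 30 had all probes above 0 and 7 had all below 0. The 2 brightest named genes of each window of the stretch were described one by one, a choice by level and not by difference.

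PSAT1, an aminotransferase of serine synthesis, stood highest above its own median. Its log2 intensity in the deleted tumours, in order, was 10.43, 10.47, 10.65 and 14.16, against 11.87, 11.85 and 10.996 in the wild-type tumours. Deleted tumour 4 was above every other tumour by at least 2.29, and the deviations of the 2 PSAT1 probes were 3.17 and 3.296. The remaining 3 deleted tumours were lower than each wild-type tumour.

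TRMT11, a subunit of an enzyme that methylates transfer RNA, was at 8.83, 8.70, 8.90 and 11.32 in the deleted tumours and 9.16, 9.09 and 9.20 in the wild-type tumours. The 6 other tumours were close together, and all 3 TRMT11 probes deviated by 1.87 to 2.22 in deleted tumour 4. ISCA1, which takes part in mitochondrial iron-sulfur cluster assembly, was at 11.29, 11.51, 11.26 and 13.27 in the deleted and 11.25, 10.81 and 11.69 in the wild-type tumours. EPB41L2, a protein that links membrane and cytoskeleton, was at 10.94, 10.95, 10.95 and 12.47 in the deleted and 10.94, 10.80 and 11.32 in the wild-type tumours. For both genes deleted tumour 4 was above all others, by 1.58 and 1.15. The 4 EPB41L2 probes deviated by 0.35 to 1.52 there.

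ANXA1, a membrane-binding annexin and the brightest of these genes, was at 14.09, 13.90, 13.73 and 15.03 in the deleted and 13.67, 13.81 and 13.83 in the wild-type tumours. HDDC2 and PUM3, an RNA-binding protein of the nucleolus, were also highest in deleted tumour 4, with deviations of 1.94 and 1.81. RWDD1 deviated by 1.11 and RCL1, needed for ribosome assembly, by 1.14. Highest by a smaller margin were BRP44L (a subunit of the mitochondrial pyruvate carrier), C1H9orf3 and CBWD2, at 0.20 to 0.24 above the next tumour.

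Not every bright gene of the stretch followed. MAN1A1, a mannosidase of the Golgi, was at 11.58, 12.14, 12.55 and 9.41 in the deleted and 10.66, 11.53 and 8.82 in the wild-type tumours, so deleted tumour 4 was second from the bottom. RNASET2, a lysosomal ribonuclease, and TMEM2, a cell-surface protein that breaks down hyaluronan, were at rank 5 of 7 from the top there. HNRNPK, an RNA-binding protein, was at rank 4 by its brightest probe, while its 3 probes had deviations from 0.0 to 0.90, and TLE1 and NFIL3, which both repress transcription, were at rank 2. In all, 12 of these 18 genes were highest in deleted tumour 4.

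**Figure D4:**
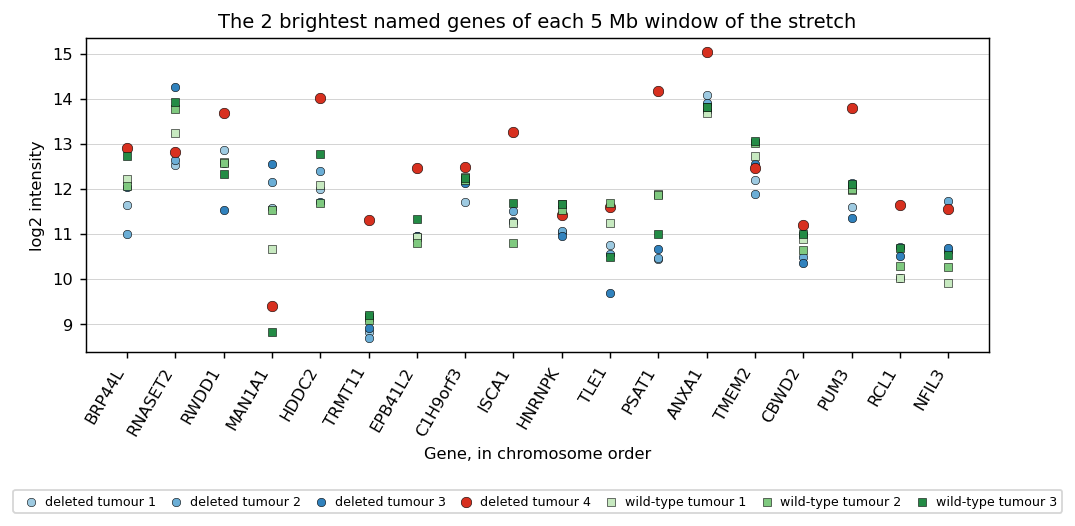
Log2 intensity of the 2 brightest named genes of each 5 Mb window of the stretch, in chromosome order, with 1 point per tumour (circles deleted, squares wild type). Deleted tumour 4, the large red circle, is the top point for 12 of the 18 genes, and for MAN1A1 it is second from the bottom.

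Lists of genes by role held 3 to 8 genes of the stretch each, too few to compare shares between roles. For scale, 70 of the 120 genes of the stretch were highest in deleted tumour 4. Among genes of trafficking and the cytoskeleton in the stretch, 5 of 6 were highest in deleted tumour 4, with a median deviation of 1.36. Among metabolism genes 5 of 8 were, with a median of 0.85: besides PSAT1 and RCL1 these included AUH, of leucine breakdown, at a log2 intensity of 10.31 in deleted tumour 4 against 7.85 to 8.48 in the others. Of the trafficking list, UBQLN1, which escorts proteins for degradation, was at 11.37 against 9.05 to 9.55. The share was 3 of 8 for chromatin and transcription, 2 of 6 for growth and survival, 1 of 3 for immune signalling and 1 of 5 for bone and cartilage matrix. Over all lists it was 17 of 36 in the stretch (median deviation 0.34), and 5 of 42 elsewhere on the chromosome (median -0.20), where 17 were lowest.

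Among the matrix genes, SMOC2, a secreted calcium-binding protein, was at 10.47 in deleted tumour 4, with 11.54 to 12.75 in the other deleted tumours and 12.89, 12.84 and 10.10 in the wild-type tumours. Its 2 probes deviated by -1.39 and -0.077 in deleted tumour 4. DSE, an epimerase of dermatan sulfate synthesis, was at 10.53, below the 11.46 to 12.10 of all other tumours. In the 100 to 105 Mb window, OMD, the bone proteoglycan osteomodulin, was at 10.97, 7.08, 9.12 and 13.98 in the deleted and 11.11, 8.06 and 12.04 in the wild-type tumours. It varied widely in every group, and deleted tumour 4 was its highest. CENPP, a centromere protein gene next to OMD, was at 13.73 there against 10.13 to 11.17 in the others. OGN and ASPN, small leucine-rich proteoglycans of the same cluster, were at 10.72 and 9.45, neither the highest of the 7. ECM2 of that cluster was highest in deleted tumour 4 by a small margin, at 7.98 against 6.99 to 7.93. In the stretch, RSPO3, a secreted enhancer of Wnt signalling, was highest there too, at 8.89 against 6.48 to 8.28. These matrix genes outside the bright set were named after their values were seen.

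The excess also differed with the measured level of a probe. All kept probes of the genome were split into 3 equal classes by mean level. The low class ran from 5.93 to 6.79, near the floor set by the offset of 50 used in background correction. Deviations there are held small by that floor, so whether the excess itself was lower cannot be told. In the stretch, deleted tumour 4 was highest at 37.31% of low, 63.49% of middle and 60.34% of high probes. Off chromosome 1 the shares were 17.0%, 18.93% and 18.55%. The median deviation in the stretch was 0.090, 0.80 and 0.79 in these classes and 0.0 off chromosome 1 in each. By GC content of the probe, the median was 0.56 under 40%, 0.32 from 40 to 50% and 0.12 over 50%, the last over 35 probes. The median GC content was 41.67% in the stretch and 45% in the rest of the chromosome. After the median of off-chromosome probes of like GC and level was taken off, a choice made after seeing the data, the block difference was 0.44.

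**Figure D5:**
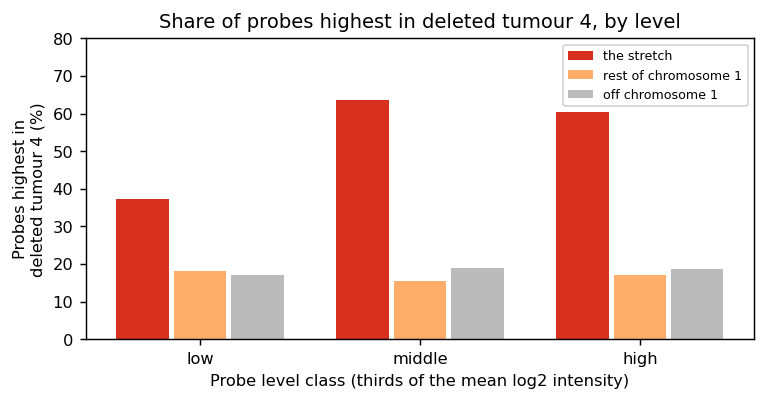
Share of kept probes (%) that were highest in deleted tumour 4, by class of mean log2 intensity, for the stretch (red), the rest of chromosome 1 (orange) and other chromosomes (grey). The red bars stand at 37.31, 63.49 and 60.34%, above the orange and grey bars in each class.

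Markers of cell types also differed in deleted tumour 4, most of all those of fat cells. The median deviation of 5 adipocyte markers (ADIPOQ, CIDEC, LEP, LPL and PLIN1) was 4.01 in deleted tumour 4 and -0.10 to 0.19 in the others, and 0 of the 5 lie on chromosome 1. The mean level of these markers was 10.47 in deleted tumour 4 and 6.84 to 7.20 in the others, and 4 of the 5 were highest in it. Osteoblast markers had a median of 0.52 there (-1.02 to 0.29 in the others), with 3 of 6 highest. Osteoclast markers were at -1.22 (-1.18 to 3.11) and leukocyte markers at -0.22 (-0.16 to 0.46), with 0 highest. Endothelial markers were at 0.25 (-0.45 to 1.31), also with 0 highest. The part of any of these cell types in the raised stretch was not tested.

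The groups themselves were compared with limma over all 32309 kept probes, two-sided, calling a probe at an unadjusted p below 0.05 and a Benjamini-Hochberg adjusted p below 0.1. It called 0 probes (0.0% of those tested), on chromosome 1 or elsewhere, and the methods' t-test, run on the same values, also called 0. The probes below 0.05 before adjustment numbered 2356 in all (7.29%) and 135 on chromosome 1 (7.48%). In the stretch there were 24, of which 12 were higher in deleted tumours (3.19%, against 3.16% of all kept probes) and 12 lower (3.19%, against 4.13%). In the rest of the chromosome 14 were higher (0.98%) and 97 lower (6.79%). The stretch thus stood near the background, while elsewhere on the chromosome lower probes outnumbered higher ones. Without deleted tumour 4 the stretch had 37 such probes (9.84%), of which 13 were higher and 24 lower, and the share over all kept probes went to 9.25% as well. The median difference of the stretch went from 0.064 to -0.029. Without wild-type tumour 1 or 2 the rest of the chromosome had 62 or 72 such probes (4.34% and 5.04%), again near the 4.38% and 4.83% over all kept probes.

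The 3 genes of the stretch with the smallest unadjusted p were JAK2, CD274 and SMPDL3A. JAK2, the kinase of cytokine receptors (canFam2 chr1:96501451-96501510), was at 9.02, 9.03, 8.79 and 8.93 in the deleted and 8.05, 8.42 and 8.44 in the wild-type tumours. The groups did not overlap, as at 8.14% of all kept probes, and the difference was 0.64 (SE 0.14, limma adjusted p = 0.466). CD274, the immune checkpoint ligand PD-L1 (chr1:96667477-96667523), was at 7.30, 7.51, 7.08 and 7.85 against 6.21, 6.78 and 6.22. The groups did not overlap here either, and the difference was 1.03 (SE 0.23, limma adjusted p = 0.485). Its size depended on the processing, at 2.33 with the quantile-normalised processed intensity. With slide as a block it was 0.52. That value rests only on deleted tumours 2 and 3 against wild-type tumour 2, the tumours that shared a slide. SMPDL3A, a phosphodiesterase (chr1:65164836-65164895), was at 9.27, 10.10, 9.64 and 9.59 against 8.26, 8.89 and 7.35, a difference of 1.49 (SE 0.37, limma adjusted p = 0.502).

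None of the 3 passed the threshold. Without deleted tumour 4 the differences were 0.65, 0.90 and 1.51. JAK2 and CD274 lie near each other, and deleted tumour 4 was at rank 3 from the top for JAK2 and at rank 1 for CD274. Outside the stretch the smallest p were those of TTYH1, a chloride channel family member, TNNI3, the cardiac troponin I, and CALM3, a calmodulin. Their differences were -1.17 (SE 0.13, limma adjusted p = 0.239), -1.40 (SE 0.22, limma adjusted p = 0.384) and -0.75 (SE 0.18, limma adjusted p = 0.499), each with deleted tumours below all wild-type tumours and none past the threshold.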

How the data were processed

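Total RNA of 7 tumours was labelled with Cy3 and hybridised by the authors, 1 array per tumour. Per the file headers, the deposited values are spot, background and processed intensity on a linear scale from Agilent Feature Extraction 10.7.3.1. Per the methods, the authors normalised by multi-array average and corrected for batch. Groups came from the labels, and tumour numbers pair nothing.

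Here the mean intensity was corrected for local background by normexp (offset 50), quantile-normalised and put on the log2 scale (limma 3.58.1, R 4.3.3). In all, 46 background values with both background outlier marks, 18 of them in deleted tumour 1 and up to 58105 there, were replaced by the array's median background, since they distorted the fit of that array. Controls and 144 values marked as outliers were left out, and replicate spots were averaged. Windows were 5 Mb from position 0 and needed 10 kept probes. With 7 arrays, their number sets the precision.

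Gene names were those of the files or, for 1852 of the 20562 probes with a symbol, came from RefSeq (assembly UU_Cfam_GSD_1.0, no coordinates used). Of 939 kept chromosome 1 probes with a symbol, 877 were found there and 875 lay on chromosome 1. The probe with the highest mean stood for a gene. Named were the 2 brightest genes per window of the stretch, genes of 6 lists, the 3 of smallest p inside and outside it, and the genes at its edges. Some genes of the lists and edges count in the totals but are not reported here by name. The members and lists were chosen with earlier results of these data known. Computations were tested on simulated data. Alternatives covered background correction, scaling, filters, windows, covariates, other tests and each tumour left out.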

Additional observations from a re-analysis of the deposited data

Results flagged for a closer look

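For 98 measures, the gap between the highest or lowest of the 4 deleted tumours and its nearest neighbour was set against the range of the 4. The gap exceeded 0.829 of the range for 6 measures, and chance, at about 1 in 20, would give 4.9. All 6 rest on the stretch, which was selected on the levels of these same tumours, so the gaps are descriptions and support nothing. The gap was 0.917 of the range for the block difference, with deleted tumour 4 on top. It was 0.921 for TRMT11, 0.991 for EPB41L2, 0.879 for ISCA1 and 0.94 for PSAT1, each with deleted tumour 4 on top. For HEY2, a transcription repressor of the Notch pathway, it was 0.922, with deleted tumour 3 at 6.33 and the other deleted tumours at 7.53 to 7.63.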

How the results depend on the processing

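The block difference of deleted tumour 4 was above 0 in all 21 alternatives. The limit for a move was the pooled within-group SD, 0.17, which deleted tumour 4 largely set itself. The SD was 0.0208 in the other deleted tumours and 0.0046 in the wild-type tumours. By this wide limit 14 alternatives left the block difference unmoved, among them 0.37 with normexp and the 75th percentile. The others gave 0.96 (processed intensity scaled by the 75th percentile), 0.91 (processed intensity with quantile normalisation), 0.77 (well above background on all 7 arrays), 0.094 (no filter on dim probes), 0.82 (1 probe per gene), 0.0033 (probes above background on 0 arrays) and, chosen after seeing the data, 0.20 (probes without a symbol). With each other tumour left out in turn it ran from 0.43 to 0.47. Windows raised in deleted tumour 4 were 36% of 25, 8.0% without the filter and 32 to 40% with a tumour left out. Lowered windows were 12% and less stable: 36% and 32% with the processed intensity (75th percentile and quantile), 20% with normexp and the 75th percentile, 20% for probes above background on all arrays, 0% without the filter, 20% centred on the mean, 24% with mean deviations, 7.69% in 10 Mb windows, 32% and 0% at limits of 0.1 and 0.3, and 4% with the background as deposited, chosen after seeing the data. Leaving out a tumour gave 4.0 to 16.0%, the lowest without wild-type tumour 3.

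Between the groups, 0 probes were called over the genome, and 10 (processed intensity, 75th percentile), 4 (processed, quantile), 4 (normexp, 75th percentile), 3 (1 probe per gene) and 4 (limma with trend and robust options) under alternatives. Leaving out a tumour gave 0 to 45, with 45 without wild-type tumour 3. Of the 10 calls, 2 lay on chromosome 1, which held 1804 of the 32309 kept probes. Counts this small do not show where calls gather. With any tumour left out, 0 probes of chromosome 1 were called. Probes of the stretch at an unadjusted p below 0.05 numbered 24, and 11 of 120 with 1 probe per gene (9.17%, against 6.92% of all such probes). With a tumour left out they numbered 17 to 37. The highest count was without deleted tumour 4, where the share over all kept probes went from 7.29 to 9.25% too. In the rest of the chromosome they were 14 higher and 97 lower (7.77%, against 7.29% of all kept probes). With 1 probe per gene they were 39 of 493 (7.91%, against 6.92% of all such probes). With wild-type tumours 1 and 2 as 1 tumour they were 61 (4.27%, against 4.32%). Leaving out a tumour gave 62 (4.34%, against 4.38%, without wild-type tumour 1) to 141 (9.87%, against 7.94%, without deleted tumour 2). The causes were not tested. JAK2, CD274, SMPDL3A, TTYH1, TNNI3 and CALM3 kept their direction in 15 alternatives each, but not their size. The CD274 difference ran from 0.52 to 2.33, SMPDL3A fell to 0.99 and TNNI3 went to -0.93 with slide as a block. Differences with slide as a block compare only deleted tumours 2 and 3 with wild-type tumour 2, which shared a slide. The adjusted p ran from 0.106 to 1.0. No paired analysis was possible because the labels give no replicate numbers that join tumours of the 2 groups.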

Other observations

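Other tumours had windows of their own on chromosome 1. In deleted tumour 1 the window at 10 to 15 Mb had a median deviation of 0.29 over 17 probes, and 4 of its 7 genes with a symbol were highest in that tumour. In deleted tumour 3 the window at 60 to 65 Mb had a median of -0.29 over 32 probes, and 7 of its 15 genes were lowest there, a window that was raised in deleted tumour 4. Wild-type tumour 3 had a median of 0.14 over the 162 probes from 0 to 25 Mb and was highest at 49 of them (30.25%), where deleted tumour 4 was low. These were noticed in the data and were given no test.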
